A study of Sus scrofa with 6 samples.

Results

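Cathepsins, subunits of the vacuolar ATPase, lysosomal membrane and soluble proteins, and autophagy genes were compared between IPEC-J2 and IPEC-1. The genes were picked by their symbols alone, without regard to any signal: the cathepsins (CTS followed by 1 letter), the subunits and accessory proteins of the vacuolar ATPase (ATP6V and ATP6AP), the numbered LAMP and ATG genes, the GABARAP and MAP1LC3 families, and NPC1, NPC2, PSAP, SCARB2, CD63 and TPP1. Of the 6765 genes with a value, 49 met this rule, and 76 probe sets stood for them. Both lines are spontaneously immortalised epithelial cells that originate from the small intestine of newborn pigs. They were untreated and grown as polarised layers on porous membranes, and each line was measured on 3 Affymetrix Porcine Genome Arrays with 500 ng of total RNA per array. An immortalised line stands for 1 origin, so that a difference between IPEC-J2 and IPEC-1 is a difference between these cell lines and not between gut segments or animals. The sample labels give 7 days on the membranes, whereas the study's methods give a longer culture, and the labels carry only 1 cell bank number, given for both lines.

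Lysosomes break down material that a cell has taken up or has enclosed itself. Cathepsins are proteases that work in the acidic lumen, and the vacuolar ATPase supplies the acid: its V1 sector splits ATP in the cytosol and turns a rotor that drives protons through the V0 sector in the membrane. In autophagy, ATG proteins build a vesicle around cytoplasm, attach proteins of the ATG8 family (GABARAP and MAP1LC3) to its membrane, and the vesicle then fuses with a lysosome. In the small intestine of newborn mammals, enterocytes take up milk proteins by endocytosis and digest part of them in lysosomes.

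Signals are given on the log2 scale throughout, as the mean over all probe sets of a gene. The lowest value on every array was 4.00, which is called the floor here and carries no order. IPEC-J2 replicate 1 stood apart from the other arrays, with 48.3% of its probe sets at the floor and a 75th percentile of 8.31, against 40.5 to 44.5% and 8.51 to 8.56 on the other 5 arrays. A background level was set from probe sets that rose above the floor on only 1 array of a cell line, and it was 7.78 in IPEC-J2 and 7.85 in IPEC-1. Epithelial markers had mean signals of 10.36 to 10.65 per array in IPEC-J2 and 9.36 to 9.93 in IPEC-1, over 11 of 12 listed genes with a value. These genes did not move together: VIL1, CLDN3 and CLDN7 were higher in IPEC-J2 (log2 differences of 6.90, 2.14 and 1.09, with 1 IPEC-1 array at the floor for VIL1 and all 3 for CLDN3), KRT19 was lower (-0.80), and CDH17 was at the floor on all arrays. Of the leukocyte markers with a value, PTPRC, TYROBP and FCER1G were at the floor on all arrays, AIF1 had mean signals of 10.55 in IPEC-J2 and 10.36 in IPEC-1, and CD3E was at the floor in IPEC-J2 and at 5.93 in IPEC-1. Of the endothelial markers, VWF, CDH5 and KDR were at the floor on all arrays, and PECAM1 was lower in IPEC-J2, at 4.29 against 5.75 in IPEC-1 (adjusted p = 0.0307 by limma), below the background levels.

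Cathepsins and proton pump subunits differed between the lines in both directions, and of the autophagy genes GABARAP was higher in IPEC-J2. In the comparison of all genes with limma (Benjamini-Hochberg adjusted p under 0.05, n = 3 per line), 5 of the 49 genes were higher in IPEC-J2 (CTSD, ATP6V1F, ATP6V0C, CD63 and GABARAP) and 7 were lower (CTSS, CTSZ, ATP6V1B2, ATP6V1D, ATP6V0A4, ATP6V0D1 and ATP6V0E1). These shares were 10.2% higher and 14.3% lower, beside 9.46% higher and 11.2% lower among all 6765 genes, so that the share of calls lay near the background. All IPEC-J2 arrays lay above all IPEC-1 arrays for 8 of the 49 genes (16.3%, against 16.2% of all genes), and all lay below for 13 (26.5%, against 22.5%). The median log2 difference (IPEC-J2 minus IPEC-1) was 0.00 over the 49 genes and 0.00 over all genes. CTSW, ATP6V0D2 and ATG9B were at the floor on all 6 arrays, which left 46 measured genes. Among the called genes, CTSZ, ATP6V0A4 and CTSS were at the floor or below the background level in IPEC-J2, so that the size of their differences is not known, and the other 9 called genes differed by 1.12-fold to 1.59-fold. With the culture notes of the sample descriptions as a block, which tie 1 array of each line together in a pair of cases, 4 of the 12 calls were kept (CTSZ, CTSS, ATP6V0A4 and GABARAP). The shares of all genes called with this block fell as well, to 5.38% higher and 5.60% lower. Of the 34 measured genes that were not called, 22 had a 95% interval of the difference within 2-fold in either direction, and for 12 it reached further.

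**Figure D1:**
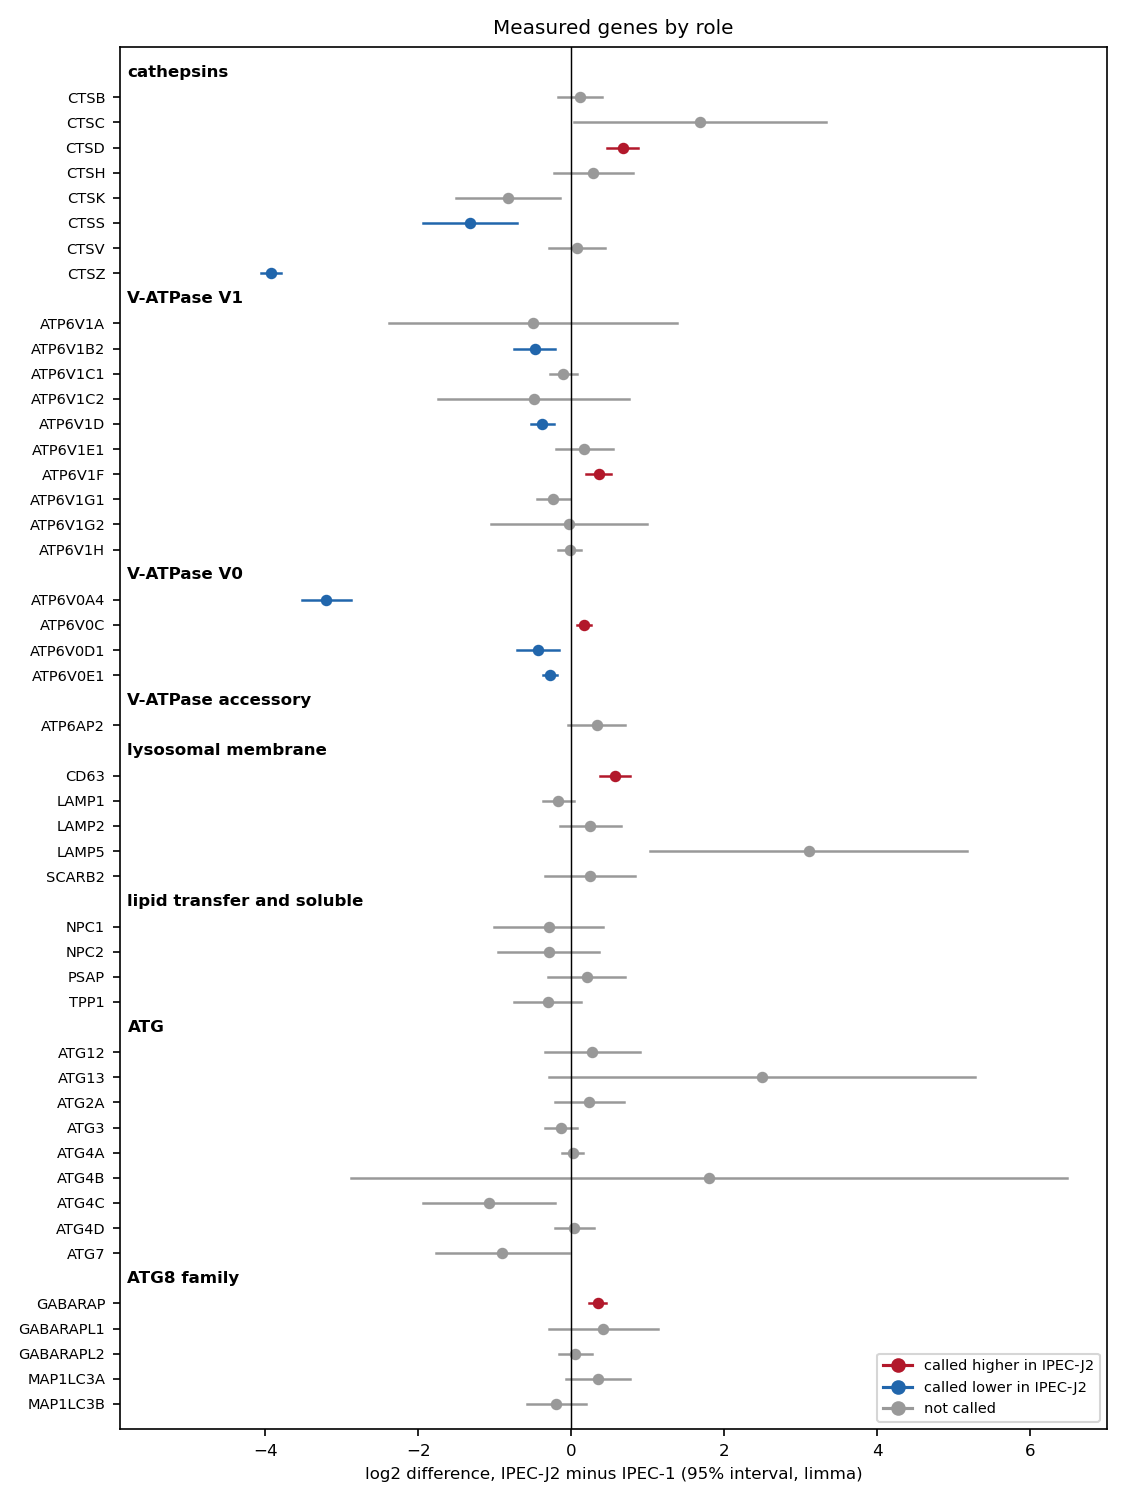
Log2 difference (IPEC-J2 minus IPEC-1) with its 95% interval from limma for each of the 46 measured genes, ordered by role, with genes called higher in IPEC-J2 in red, those called lower in blue and those not called in grey. The called differences lie within 1 log2 unit of 0 apart from CTSZ at -3.92, ATP6V0A4 at -3.20 and CTSS at -1.32, and the widest intervals belong to genes with an array at the floor, such as ATG4B and ATG13.

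Of the 9 cathepsins, CTSD was higher in IPEC-J2, CTSS and CTSZ were lower, and 6 did not pass the test (11.1% higher and 22.2% lower, beside 9.46% and 11.2% of all genes). CTSD encodes the main aspartic protease of the lysosome. CTSD had log2 signals of 10.25, 10.46 and 10.42 on the 3 arrays of IPEC-J2, against 9.71, 9.78 and 9.63 on those of IPEC-1. The lines did not overlap, and the gap between them exceeded the spread within each line. The mean signal was 10.38 ± 0.11 in IPEC-J2 and 9.71 ± 0.08 in IPEC-1 (SD, n = 3 each), a log2 difference of 0.67 (SE 0.0740) or 1.59-fold, with an adjusted p of 0.00761 by limma. CTSD remained called with each array left out in turn, with adjusted p-values between 0.00886 and 0.0400, but not with the culture-note block (adjusted p = 0.0699), with the replicate block (0.0519) or on the 4 arrays with a shared culture note alone (0.0959).

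CTSZ, a carboxypeptidase, was at the floor on all 3 arrays of IPEC-J2 and had log2 signals of 7.98, 7.96 and 7.82 in IPEC-1. It was above the floor in every IPEC-1 culture, close to the background level of that line (7.85), and in no IPEC-J2 culture. Since the floor hides the true level in IPEC-J2, only a bound can be given: the IPEC-1 mean of 7.92 was at least 1.10-fold higher than the background level of IPEC-J2. The log2 difference against the floor was -3.92 (adjusted p = 1.55e-05 by limma). This p-value depends on the floor, which hides the spread of IPEC-J2. The difference was also taken between the arrays that share a culture note, called A and B here, and it was -3.98 for note A and -3.96 for note B. In RNA from whole cultures, fewer cells expressing a gene and less RNA per cell cannot be told apart.

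CTSS, which in antigen-presenting cells trims the invariant chain of MHC class II, had low signals in both lines. Its log2 signals were 5.21, 5.64 and 5.59 in IPEC-J2, against 6.66, 6.56 and 7.20 in IPEC-1. Every IPEC-J2 array lay below every IPEC-1 array, but both means (5.48 ± 0.23 in IPEC-J2 and 6.81 ± 0.34 in IPEC-1, SD, n = 3 each) lay below the background levels. The log2 difference was -1.32 (SE 0.228, adjusted p = 0.0226 by limma). Of the 3 probe sets of CTSS, the one at the floor throughout IPEC-J2 was called (-1.43, adjusted p = 0.00191), while the differences of -1.43 and -1.12 of the others had adjusted p-values of 0.0761 and 0.0987. The call of CTSS was lost without IPEC-J2 replicate 1, 2 or 3 (adjusted p = 0.0593, 0.0620 and 0.0774) and without IPEC-1 replicate 1 (adjusted p = 0.0624). Markers of leukocytes, cells in which CTSS is usually high, had a summed linear signal of 1520 to 1760 per array in IPEC-J2 and 1120 to 1670 in IPEC-1, most of it from AIF1. Among 7 of these markers with a value, PTPRC, TYROBP and FCER1G were at the floor on all arrays, none was higher and CD3E was lower in IPEC-J2, where it was at the floor. The part of such cells in the CTSS difference was not tested.

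CTSC encodes dipeptidyl peptidase I, which activates serine proteases by cutting off their N-terminal dipeptides. Its log2 signals were 11.15, 11.64 and 11.60 in IPEC-J2, against 10.93, 8.77 and 9.66 in IPEC-1. All IPEC-J2 arrays lay above all IPEC-1 arrays, but the IPEC-1 cultures differed among themselves by more than 2 log2 units, and IPEC-1 replicate 1 came close to IPEC-J2. The mean difference of 1.68 had a 95% interval of 0.03 to 3.33 and did not pass the test (adjusted p = 0.146 by limma). Without IPEC-1 replicate 1, the difference was 2.25 with an adjusted p of 0.0435. All 4 probe sets of CTSC had positive differences (2.11, 1.52, 1.86 and 1.22), and all 4 showed IPEC-1 replicate 2 as the lowest array. The spread between the IPEC-1 cultures was therefore not that of a single probe set.

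The remaining cathepsins were not called. CTSK, a collagen-degrading protease best known from osteoclasts, had log2 signals of 6.81, 7.53 and 7.48 in IPEC-J2, all below those of 7.98, 7.95 and 8.37 in IPEC-1 (difference -0.83, adjusted p = 0.101 by limma). It passed the threshold after quantile normalization (adjusted p = 0.0256), after centring on the 75th percentile (0.0356) and with genes of a mean under 5 removed (0.0488). CTSK and CTSS are direct neighbours in the RefSeq gene order. Fibroblast markers had a summed linear signal of 2120 to 3830 per array in IPEC-J2 and 4770 to 10600 in IPEC-1, with COL3A1, DCN and LUM at the floor on all arrays. VIM carried most of this sum, with mean log2 signals of 11.48 in IPEC-J2 and 12.86 in IPEC-1, and like PDGFRB (4.71 in IPEC-J2 and 5.55 in IPEC-1) it had all IPEC-J2 arrays below all IPEC-1 arrays, though neither was called. The part of such cells in the CTSK values was not tested. CTSB, a cysteine protease found in most cells, differed by 0.11 (95% interval -0.18 to 0.40). The aminopeptidase CTSH (0.29, adjusted p = 0.413) and CTSV, a protease close to cathepsin L (0.07, adjusted p = 0.876), also stayed below the threshold. CTSW, known from cytotoxic lymphocytes, was at the floor throughout.

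**Figure D2:**
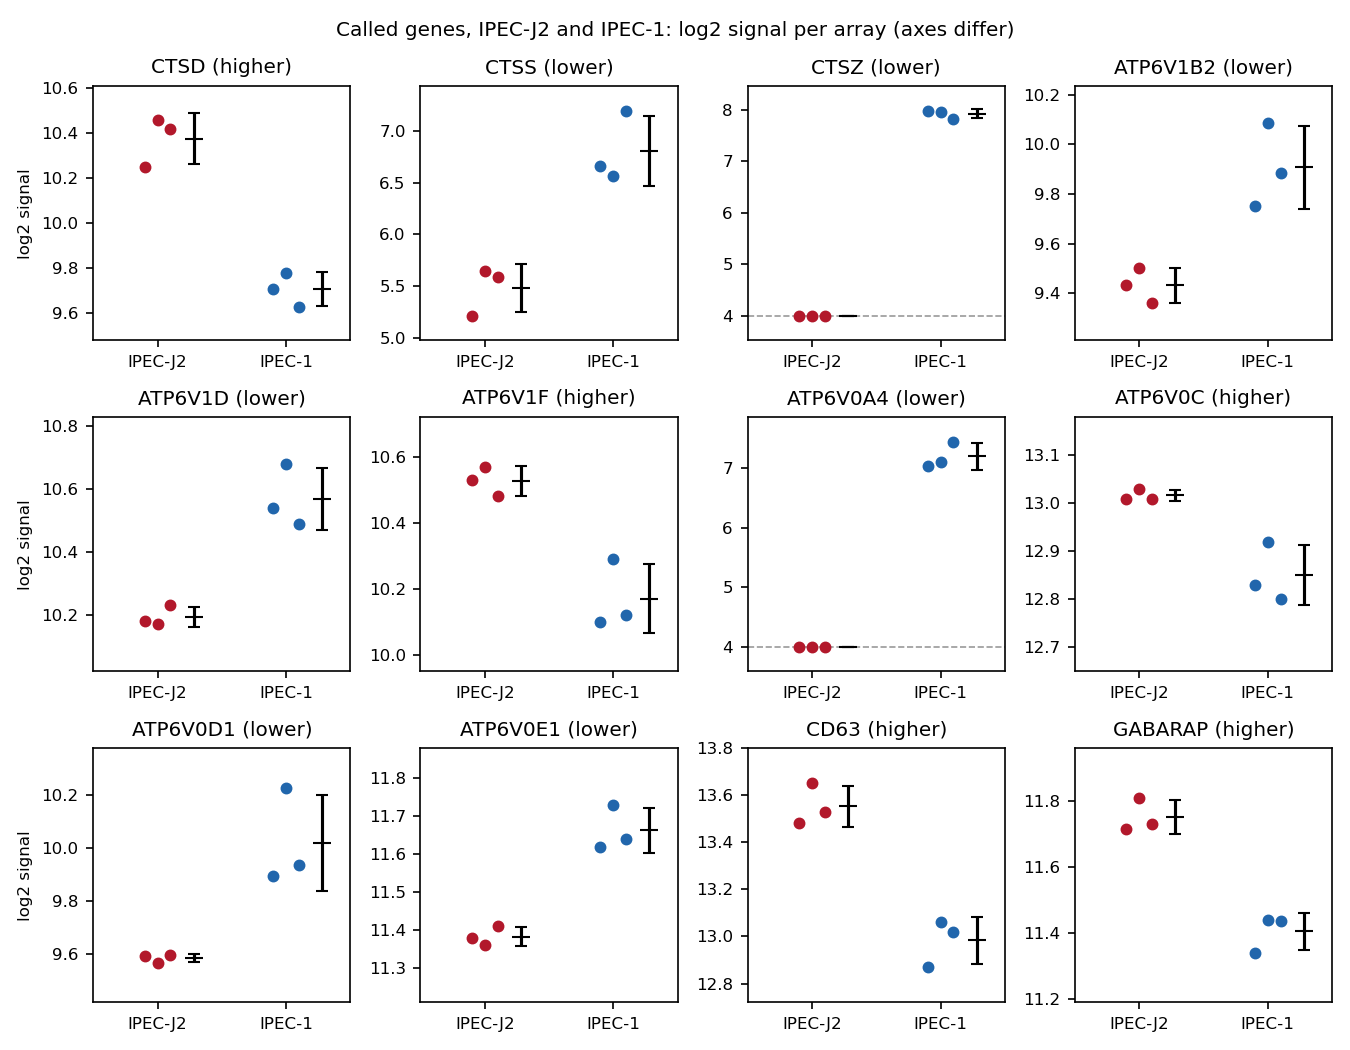
Log2 signal on each array of the 12 called genes, IPEC-J2 in red on the left and IPEC-1 in blue on the right of each panel, with bars for mean ± SD (n = 3 each), separate axes and a dashed line at the floor of 4.00. The lines do not overlap in any panel, and CTSZ and ATP6V0A4 sit on the floor on all arrays of IPEC-J2.

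The vacuolar ATPase held 7 of the 12 calls. Of its 16 genes, ATP6V1F and ATP6V0C were higher in IPEC-J2, ATP6V1B2, ATP6V1D, ATP6V0A4, ATP6V0D1 and ATP6V0E1 were lower, and 9 were not called. These are shares of 12.5% higher and 31.2% lower, beside 9.46% and 11.2% of all genes. The differences were negative for 11 genes and 0 or positive for 5, with a median of -0.17. Apart from ATP6V0A4, the called subunits differed by 1.12-fold to 1.39-fold, so that subunits of the same pump differed in opposite directions and by small amounts. Genes for 8 kinds of V1 subunit and 4 kinds of V0 subunit were above the floor on at least 1 array.

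In the V1 sector, ATP6V1B2 encodes a subunit of the ATP-splitting head. ATP6V1B2 had log2 signals of 9.44, 9.50 and 9.36 in IPEC-J2, against 9.75, 10.09 and 9.88 in IPEC-1, with no overlap (difference -0.48, 95% interval -0.74 to -0.21, adjusted p = 0.0388 by limma, 1.39-fold lower). The probe sets of ATP6V1B2 differed in size: one was lower by 0.72 on the log2 scale and was called among all probe sets (adjusted p = 0.00817), whereas the other had a difference of -0.23, overlapped between the lines and was not called (adjusted p = 0.639). ATP6V1D, a part of the central rotor, had log2 signals of 10.18, 10.17 and 10.23 in IPEC-J2 and 10.54, 10.68 and 10.49 in IPEC-1. The arrays of IPEC-J2 lay within 0.1 of each other and all below IPEC-1, and the difference was -0.38 (SE 0.0571, adjusted p = 0.0166, 1.30-fold lower). ATP6V1F, which belongs to the same rotor, ran the other way with 10.53, 10.57 and 10.48 in IPEC-J2, against 10.10, 10.29 and 10.12 in IPEC-1. All its IPEC-J2 arrays were higher, with a difference of 0.36 (SE 0.0626, adjusted p = 0.0238, 1.28-fold). These 3 calls were each lost when certain single arrays were left out: adjusted p-values reached 0.131 for ATP6V1B2 (lost for all but IPEC-1 replicate 1), 0.0625 for ATP6V1D (lost for each IPEC-J2 array and for IPEC-1 replicate 1) and 0.0818 for ATP6V1F (lost for all but IPEC-1 replicate 2).

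None of the other 7 genes of the V1 sector was called. The catalytic subunit ATP6V1A had log2 signals of 5.88, 8.08 and 7.82 in IPEC-J2 and 8.04, 7.25 and 7.99 in IPEC-1. The low value of IPEC-J2 replicate 1 came mostly from 1 of its 2 probe sets, which was at the floor on that array. The other probe set was also lowest on that array (7.77, against 8.02 to 8.84 on the others). ATP6V1H, a regulatory subunit, differed by -0.02 with a 95% interval of -0.18 to 0.13, and ATP6V1C1, which links head and stator, by -0.10 with an interval of -0.28 to 0.07. The stator subunits ATP6V1E1 and ATP6V1G1 had differences of 0.17 and -0.24 (adjusted p = 0.528 and 0.122), and without IPEC-1 replicate 1 the difference of ATP6V1G1 was -0.32 (adjusted p = 0.0239). The tissue-restricted forms ATP6V1C2 and ATP6V1G2 had mean signals of 4.00 and 4.54 in IPEC-J2 and 4.49 and 4.57 in IPEC-1, near the floor in both lines.

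In the V0 sector, ATP6V0A4 was above the floor only in IPEC-1. This form of the a subunit is known from acid-secreting cells of the kidney and from the inner ear. ATP6V0A4 was at the floor on all 3 arrays of IPEC-J2 and had log2 signals of 7.04, 7.11 and 7.45 in IPEC-1 (difference against the floor -3.20, adjusted p = 4.04e-04 by limma). Its IPEC-1 mean of 7.20 lay below both background levels, so no fold is given. It was called in all 18 alternative analyses run, with adjusted p-values between 5.49e-05 and 0.0198 in the 17 that were adjusted. These p-values depend on the floor, which hides the spread of IPEC-J2 in each of these analyses. ATP6V0D2, a form of the d subunit known from osteoclasts and kidney, was at the floor in both lines.

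The other subunits of the V0 sector had bright signals and small differences. ATP6V0E1, a small membrane subunit, had log2 signals of 11.38, 11.36 and 11.41 in IPEC-J2, against 11.62, 11.73 and 11.64 in IPEC-1, a difference of -0.28 (SE 0.0352, adjusted p = 0.0103 by limma, 1.21-fold lower). ATP6V0D1 couples the rotor to the membrane ring, and its signals were 9.59, 9.57 and 9.60 in IPEC-J2 and 9.89, 10.23 and 9.94 in IPEC-1, 1.35-fold lower (difference -0.44, adjusted p = 0.0486). Its value is the mean of 2 probe sets, which had differences of -0.47 and -0.40 and were not called on their own (adjusted p = 0.286 and 0.155). ATP6V0C, which forms the proton-carrying ring, had 13.01, 13.03 and 13.01 in IPEC-J2, against 12.83, 12.92 and 12.80 in IPEC-1. All its IPEC-J2 arrays were higher, but by only 1.12-fold (difference 0.17, SE 0.0351, adjusted p = 0.0384). The calls of ATP6V0D1 and ATP6V0C were each lost without any 1 of 5 arrays, IPEC-1 replicate 2 being the exception (adjusted p of up to 0.147 for ATP6V0D1 and 0.120 for ATP6V0C), while that of ATP6V0E1 was kept for each of the 6 arrays (0.0116 to 0.0435). With the culture-note block, ATP6V1B2, ATP6V1D, ATP6V1F, ATP6V0C, ATP6V0D1 and ATP6V0E1 were not called (adjusted p = 0.0838, 0.0733, 0.0780, 0.124, 0.117 and 0.0651). With each array centred on its 75th percentile, ATP6V1B2, ATP6V1D, ATP6V0C, ATP6V0D1 and ATP6V0E1 were no longer called (adjusted p = 0.0708, 0.0884, 0.169, 0.103 and 0.180), and the count over all 49 genes was 6 higher and 5 lower, beside 5 higher and 7 lower without centring. Among all genes, 11.8% were higher and 11.1% lower after centring. ATP6AP2, an accessory protein of the pump that is also known as the prorenin receptor, differed by 0.33 and was not called (adjusted p = 0.191). Without IPEC-J2 replicate 1, the array with the most probe sets at the floor, the difference of ATP6AP2 was 0.47 (adjusted p = 0.0343), and after centring it was 0.39 (adjusted p = 0.0361).

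Among the lysosomal membrane proteins, CD63 was higher in IPEC-J2 and the other 4 were not called (20.0% higher and 0% lower, beside 9.46% and 11.2% of all genes). CD63 is a tetraspanin of late endosomes, lysosomes and secreted vesicles. CD63 had log2 signals of 13.48, 13.65 and 13.53 in IPEC-J2, against 12.87, 13.06 and 13.02 in IPEC-1. The lowest IPEC-J2 array exceeded the highest IPEC-1 array, and the difference was 0.57 (SE 0.0731) or 1.48-fold, with an adjusted p of 0.0108 by limma. The call of CD63 was lost with the culture-note block (adjusted p = 0.0581) and on the 4 arrays with a shared note (0.115). LAMP1 and LAMP2, the abundant glycoproteins that line the lysosomal membrane, differed by -0.17 (adjusted p = 0.220) and 0.25 (adjusted p = 0.343, and 0.0334 with the culture note as a block). SCARB2, the receptor that carries glucocerebrosidase to the lysosome, differed by 0.24 (adjusted p = 0.571), with probe set differences of 0.39 and 0.09.

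LAMP5, a LAMP relative known from neurons and plasmacytoid dendritic cells, had log2 signals of 5.86, 8.63 and 6.81 in IPEC-J2, while every IPEC-1 array was at the floor. The IPEC-J2 cultures differed widely from each other, and only replicate 2 was above the background level of 7.78. The difference against the floor was 3.10 with an adjusted p of 0.0593 by limma, just short of the threshold. Without IPEC-J2 replicate 1 the adjusted p was 0.0429, and without IPEC-J2 replicate 2, which lowered the difference to 2.34, it was 0.0359. Without IPEC-J2 replicate 3 or any array of IPEC-1 it was 0.153 to 0.158, and with the replicate block and the culture-note block it was 0.148 and 0.133. LAMP5 was also called when genes at the floor on every array were left out (adjusted p = 0.0273), after quantile normalization (adjusted p = 0.0259), after centring on the 75th percentile (adjusted p = 0.0199) and when genes with a mean under 5 were removed (adjusted p = 0.0225).

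The lipid transfer and soluble proteins NPC1, NPC2, PSAP and TPP1 did not pass the test (0% in either direction, beside 9.46% higher and 11.2% lower among all genes). NPC1 and NPC2 together pass cholesterol out of the lysosome, and both had a difference of -0.30 (adjusted p = 0.571 and 0.531 by limma). That of NPC2 came from a probe set above the floor only on IPEC-1 replicate 2, while its other probe sets differed by 0.11 and -0.11. PSAP, the precursor of the saposins, which help to degrade sphingolipids, differed by 0.20 as a gene. Its bright probe set had log2 signals of 12.50, 12.71 and 12.55 in IPEC-J2, against 11.94, 12.30 and 12.19 in IPEC-1, all higher in IPEC-J2 but not called among all probe sets (difference 0.44, adjusted p = 0.103). The second probe set of PSAP was at or near the floor on all arrays and enters the mean of the gene with the same weight. TPP1, a peptidase whose loss causes a childhood neuronal storage disease in humans, had a difference of -0.31 (adjusted p = 0.293), with 1 of its 2 probe sets at the floor throughout.

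**Figure D3:**
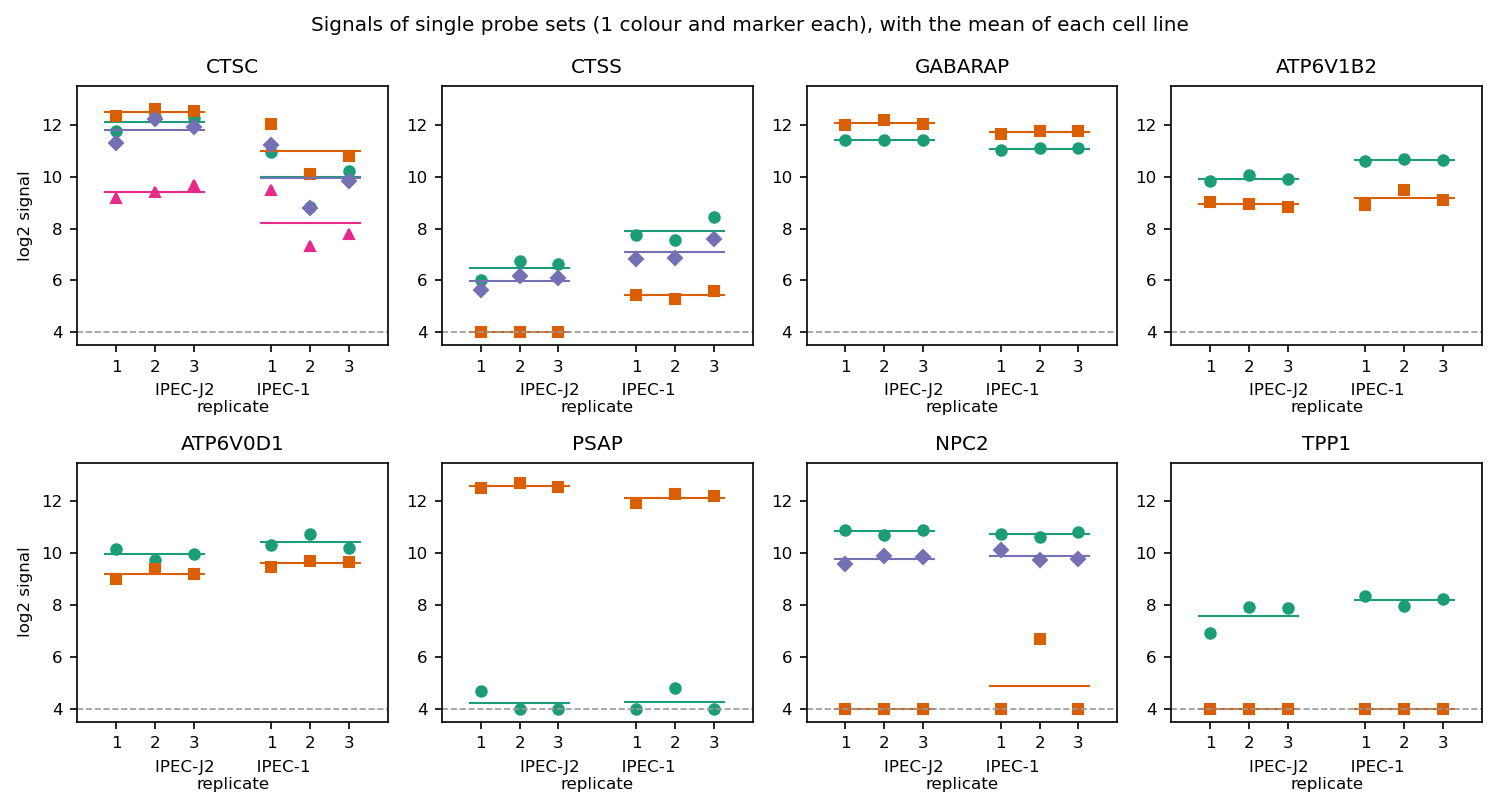
Log2 signal of each single probe set on each array (IPEC-J2 replicates 1 to 3 on the left, IPEC-1 replicates 1 to 3 on the right of each panel) for 8 genes with several probe sets, with 1 colour and marker per probe set, a line at its mean in each cell line and a dashed line at the floor of 4.00. The probe sets of CTSC, CTSS and GABARAP move in the same direction, while NPC2 and PSAP hold a probe set at or near the floor.

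Taking probe sets one by one, 5 of the 76 probe sets were called higher in IPEC-J2 (6.58%, against 5.58% of all probe sets) and 6 were called lower (7.89%, against 6.24%). Of 14 genes with several probe sets above the floor, 12 had differences of 1 sign over all of them, and the exceptions were NPC2 and PSAP. The third probe set of NPC2 was above the floor only in IPEC-1 replicate 2.

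Of the 15 autophagy genes, including the ATG8 family, only GABARAP was called. The shares were 0% in either direction for the 10 ATG genes, and 20.0% higher and 0% lower for the 5 ATG8 genes. Among all genes they were 9.46% higher and 11.2% lower. GABARAP is an ATG8 protein that acts in the closure of the autophagosome and its fusion with lysosomes. Its log2 signals were 11.71, 11.81 and 11.73 in IPEC-J2, against 11.34, 11.44 and 11.44 in IPEC-1. The lines did not overlap, and the arrays of each line varied little. The mean signal was 11.75 ± 0.05 in IPEC-J2 and 11.41 ± 0.06 in IPEC-1 (SD, n = 3 each), a log2 difference of 0.35 (SE 0.0420) or 1.27-fold, with an adjusted p of 0.00927 by limma. Both probe sets of GABARAP were called, with differences of 0.34 and 0.35 (adjusted p = 0.00389 and 0.0415), although the second one shares probes with other transcripts. The 4 other ATG8 genes overlapped between the lines: GABARAPL1 differed by 0.42 (adjusted p = 0.382), GABARAPL2 by 0.05 (0.781), MAP1LC3A by 0.35 (0.213) and MAP1LC3B by -0.20 (0.467). Without IPEC-1 replicate 2, the difference of MAP1LC3A was 0.50 (adjusted p = 0.0451).

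The ATG genes were not called, but some of them varied between arrays. ATG13, a subunit of the kinase complex that starts autophagy, had log2 signals of 7.54, 7.57 and 7.65 in IPEC-J2, against 4.00, 7.28 and 4.00 in IPEC-1 (difference 2.49, adjusted p = 0.193 by limma). The IPEC-J2 arrays were even, whereas IPEC-1 replicate 2 differed from the other IPEC-1 arrays, and without it the difference was 3.59 with an adjusted p of 1.47e-04. All these signals of ATG13 lay below the background levels. ATG4B, a protease that prepares ATG8 proteins for attachment, had 9.39, 9.60 and 9.41 in IPEC-J2 and 4.00, 9.61 and 9.39 in IPEC-1. Only IPEC-1 replicate 1 was at the floor, and the difference was 1.80 with it (adjusted p = 0.580) and -0.033 without it. A bright probe set falling to the floor on a single array was rare: of 3384 probe sets above 9 on the other 5 arrays, 4 were at the floor on IPEC-1 replicate 1, and the count was 0 to 6 on the other arrays.

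ATG4C, another protease of this family, had log2 signals of 5.91, 6.82 and 5.83 in IPEC-J2, against 7.40, 7.03 and 7.37 in IPEC-1. All IPEC-J2 arrays were below all IPEC-1 arrays, with IPEC-J2 replicate 2 the closest (difference -1.08, adjusted p = 0.0919 by limma, and 0.0212 without IPEC-J2 replicate 2). ATG4C was also called with genes of a mean under 5 removed (adjusted p = 0.0419) and after centring on the 75th percentile (adjusted p = 0.0427). ATG7, the enzyme that activates ATG8 proteins and ATG12, likewise had all IPEC-J2 arrays below all IPEC-1 arrays, with a difference of -0.90 (adjusted p = 0.140, and 0.0290 after quantile normalization), again at low signals of 5.76 to 6.91 in IPEC-J2 and 7.11 to 7.38 in IPEC-1. ATG3, which passes ATG8 proteins on to the membrane lipid, had a difference with a 95% interval of -0.34 to 0.07. ATG12, ATG2A, ATG4A and ATG4D overlapped between the lines, with differences of 0.28, 0.23, 0.02 and 0.04. Signals of ATG12, ATG13, ATG4A, ATG4C, ATG4D and ATG7 were on average below the background levels in both lines.

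Other genes that act on the same organelles were examined by 5 lists, whose genes are no members of the 49. Of the autophagy initiation and receptor genes, 14 of 32 listed had a value, and 2 were higher and 3 lower in IPEC-J2. These are shares of 14.3% higher and 21.4% lower, beside 9.46% and 11.2% of all genes. Both higher genes encode receptors that tie cargo to ATG8 proteins. Among the receptors that were not called, TAX1BP1 had a difference of 0.54, BNIP3L of -0.20 and CALCOCO2 of -0.13. SQSTM1 (p62) had a mean log2 signal of 11.98 ± 0.10 in IPEC-J2 and 11.13 ± 0.14 in IPEC-1 (SD, n = 3 each; difference 0.85, 1.80-fold, adjusted p = 0.00724 by limma), and OPTN had 10.35 ± 0.08 in IPEC-J2 and 9.55 ± 0.20 in IPEC-1 (difference 0.80, 1.74-fold, adjusted p = 0.0164). The 3 lower genes act at the start of autophagy: PIK3C3, the lipid kinase VPS34 (difference -0.58, adjusted p = 0.0198), RB1CC1, a scaffold of the ULK kinase complex (-0.44, adjusted p = 0.0210), and WIPI1, which binds the lipid made by PIK3C3 (-0.86, adjusted p = 0.0141, with means of 5.10 in IPEC-J2 and 5.96 in IPEC-1, below the background levels). RB1CC1 was at 6.28 in IPEC-J2 and 6.73 in IPEC-1, likewise below them. Initiation genes that were not called went both ways. WIPI2, WDR45 and WDR45B had differences of 0.11, 0.18 and 0.09, and BECN1 and NRBF2 of -0.195 and -0.56. With each array left out in turn, SQSTM1 stayed called (adjusted p of up to 0.0387), though not with the culture-note block (0.0660), whereas the call was lost for OPTN without 3 arrays (up to 0.0694, lost without IPEC-J2 replicates 1 and 3 and IPEC-1 replicate 3), for PIK3C3 without 4 (up to 0.0668, lost without IPEC-J2 replicates 2 and 3 and IPEC-1 replicates 1 and 2), for RB1CC1 without 4 (up to 0.0697, lost without IPEC-J2 replicates 2 and 3 and IPEC-1 replicates 2 and 3) and for WIPI1 without 2 (0.0540 without IPEC-1 replicate 2 and 0.0535 without IPEC-1 replicate 3). With the culture-note block, OPTN, PIK3C3, RB1CC1 and WIPI1 were not called either (adjusted p = 0.0581, 0.0628, 0.0839 and 0.0763).

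Of the endogenous inhibitors of cathepsins, CST6 was higher and CSTB was lower in IPEC-J2. Of the cathepsin inhibitor and processing genes, 10 of 20 listed had a value, and IPEC-J2 was higher in 2 and lower in 1 of them. CST6, a secreted cystatin that inhibits legumain and cathepsins L and V, had log2 signals of 10.98, 10.37 and 10.59 in IPEC-J2, while every IPEC-1 array was at the floor, which makes it at least 6.95-fold higher against the background level of IPEC-1 (adjusted p = 1.31e-04 by limma). CSTB, a cytosolic inhibitor of cathepsins B, H and L, had log2 signals of 11.62, 11.73 and 11.70 in IPEC-J2, against 12.83, 12.68 and 13.03 in IPEC-1, 2.24-fold lower (difference -1.16, SE 0.101, adjusted p = 0.00427). LGMN, the protease legumain, which trims cathepsins to their mature forms, had 11.13, 11.47 and 11.34 in IPEC-J2, against 10.75, 10.52 and 10.63 in IPEC-1, 1.60-fold higher (difference 0.68, adjusted p = 0.0212). None of these 3 genes overlapped between the lines. CST6 and CSTB stayed called with each array left out, while the call of LGMN was lost without IPEC-J2 replicate 2 or 3 or IPEC-1 replicate 2 or 3 (adjusted p of up to 0.0841) and with the culture-note block (0.0518).

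In the sorting of lysosomal enzymes, 18 of 32 listed genes had a value, with 1 higher and 3 lower in IPEC-J2. These are shares of 5.56% higher and 16.7% lower, beside 9.46% and 11.2% of all genes. GNPTAB makes the mannose 6-phosphate tag that sends enzymes to the lysosome, and its mean log2 signal was 8.53 ± 0.15 in IPEC-J2 and 9.79 ± 0.08 in IPEC-1 (SD, n = 3 each, adjusted p = 0.00252 by limma). The AP-3 adaptor subunits AP3D1 and AP3S2, which take part in cargo transport to lysosomes, differed by -0.43 (adjusted p = 0.00451) and -0.54 (adjusted p = 0.0213), and GGA1, an adaptor for mannose 6-phosphate receptors, by 0.76 (adjusted p = 0.0281). Of these receptors, M6PR differed by -0.36 and was not called (adjusted p = 0.122 by limma), and IGF2R was at the floor on all arrays. GNPTAB and AP3D1 stayed called with each array left out, whereas AP3S2 was lost without IPEC-J2 replicate 3 or any array of IPEC-1 (adjusted p of up to 0.0845) or with the culture-note block (0.103) and GGA1 without any array but IPEC-J2 replicate 2 (up to 0.0923). Of 15 genes with a value around mTORC1 and lysosomal gene transcription, out of 26 listed, only LAMTOR4, a subunit of the Ragulator complex, was called (6.67% higher and 0% lower, beside 9.46% and 11.2% of all genes). LAMTOR4 had 9.28 ± 0.14 in IPEC-J2 and 8.67 ± 0.09 in IPEC-1 (difference 0.60, adjusted p = 0.0159). Its call was lost without IPEC-J2 replicate 1 (adjusted p = 0.0510) and without IPEC-1 replicate 1 or 2 (0.0520 and 0.0569). TFEB and TFE3, transcription factors for lysosomal genes, are named here after their values were seen. TFEB, with 1 probe set, was at the floor on all arrays. TFE3 had mean log2 signals of 8.54 in IPEC-J2 and 8.22 in IPEC-1 and was not called (adjusted p = 0.0924 by limma).

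Of the other lysosomal membrane and transport proteins, 16 of 28 listed had a value, none was higher and 2 were lower in IPEC-J2. RNASET2, a lysosomal ribonuclease, was at the floor in IPEC-J2 and had log2 signals of 5.86, 5.82 and 5.93 in IPEC-1, below the background level. ABCD4, which takes part in the export of cobalamin from the lysosome, had a mean of 5.17 in IPEC-J2 and 6.87 in IPEC-1 (difference -1.70, adjusted p = 0.0204 by limma), also below the background levels. The call of ABCD4 was lost without any array but IPEC-J2 replicate 2 (adjusted p of up to 0.0734) and with the culture-note block (0.104). Over the 5 lists, the shares called were 0 to 20.0% higher and 0 to 21.4% lower, beside the 9.46% and 11.2% of all genes.

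**Figure D4:**
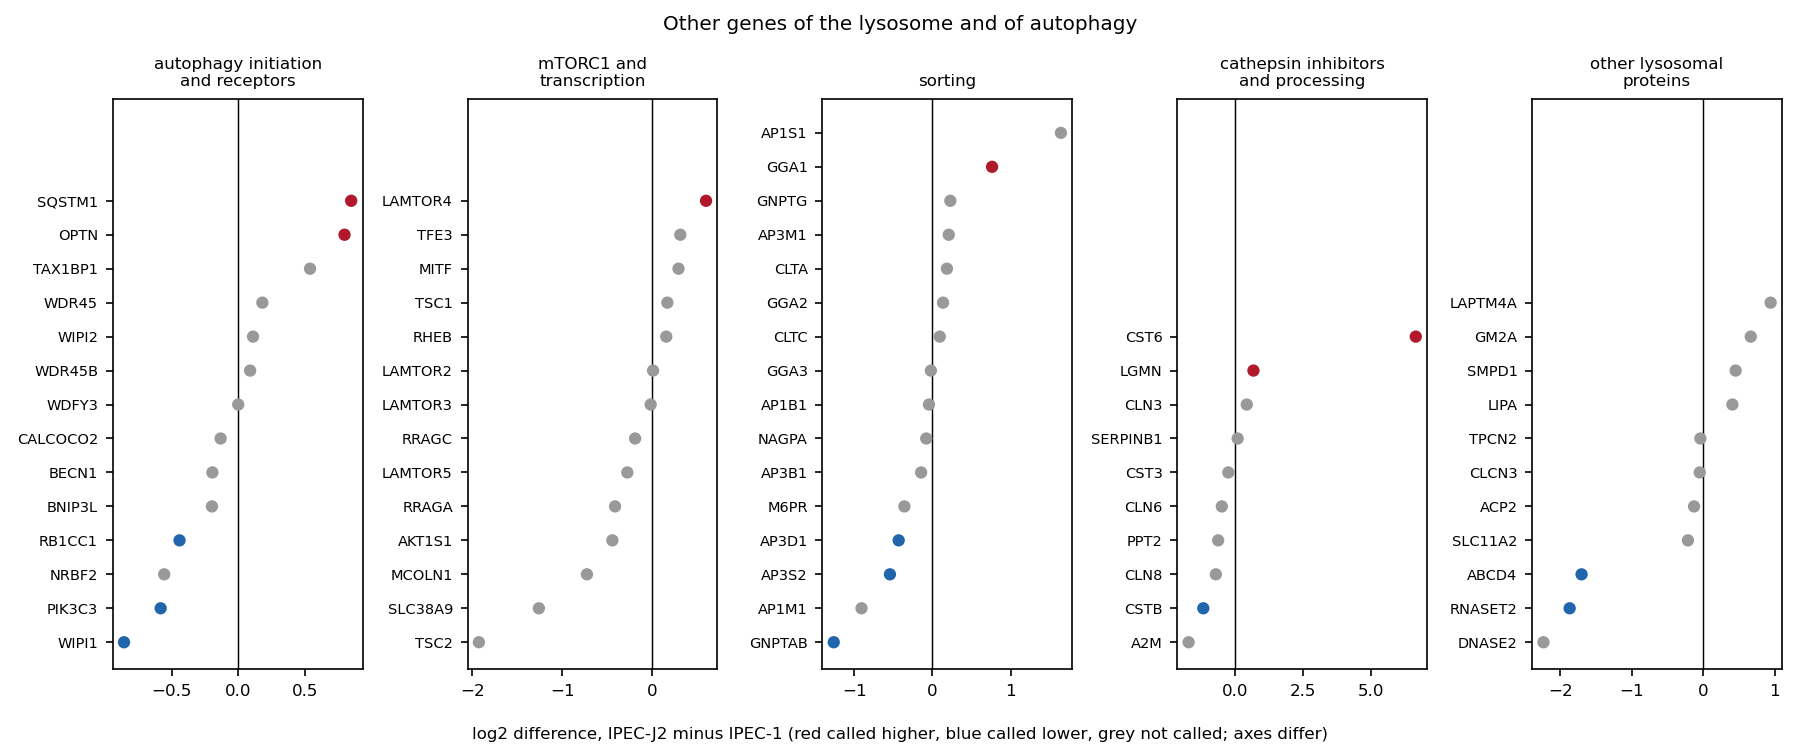
Log2 difference (IPEC-J2 minus IPEC-1, own axis in each panel) of the measured genes of 5 lists related to lysosomes and autophagy, sorted by size, with genes called higher in IPEC-J2 in red, called lower in blue and not called in grey. CST6 at 6.65 and RNASET2 at -1.87 are differences against the floor, and each list holds genes on both sides of 0.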

How the data were processed

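Each line was measured on 3 arrays, 1 per culture, and the methods describe separate experiments. Cell line and replicate number came from the sample titles. The deposited log2 signals were made by the authors with GCOS 1.1.1 and PLIER per the submitters' processing notes. Their log base is not stated, and they were read as log2 because the floor of 4.00 is the log2 of 16. The study's methods name global scaling to a target signal and a normalization step. Which of these the deposited signals had is not stated. No detection calls were used. The 124 control probe sets were left out, and the 10069 probe sets with 1 symbol in the platform annotation were averaged per symbol, as the methods do, which gave 6765 genes. Of the 49 genes, 48 had an identifier with the same symbol in the RefSeq gene table (Sscrofa11.1). There CTSL is a synonym of CTSV and also a symbol of its own. Another 22 RefSeq symbols that meet the rule, among them CTSA, CTSF, CTSL, ATG5, ATG9A and ATP6V0A1, were not analysed here.

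The lines were compared over all 6 arrays by limma 3.58.1 (R 4.3.3, lmFit and default eBayes, no block). Benjamini-Hochberg adjustment ran over the 6765 genes, including 1252 at the floor on all arrays, with 0.05 as the threshold. The eBayes variances were moderated over the same genes, so the floor genes entered them too. With the floor genes left out, ATP6V0C and ATP6V0E1 lost their calls (adjusted p = 0.200 and 0.0629 by limma), and LAMP5 gained one (0.0273). All 23999 non-control probe sets were fitted in the same way. The scripts were tested on simulated data. A line's background level was the 95th percentile of signals that stood alone above the floor among its 3 arrays. Signals of all arrays were given for called genes and for the 5 genes with the greatest difference that were not called, and up to 3 called genes per list and direction were named. The members and lists were chosen with earlier results of these data known. A p-value here reflects the spread among these cultures, moderated by limma towards that of all genes, and no variation beyond these cultures. Where a gene was at the floor on all arrays of a line, the floor hides the spread of that line and the p-value depends on it. The number of cultures limits the precision, and 3 arrays against 3 cannot give an exact permutation p under 0.1.

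Alternatives were the brightest probe set of a gene, quantile normalization, centring at the 75th percentile, an offset of 16, removal of low genes or of those at the floor, eBayes with the trend and robust settings, the methods' t-test, blocks for the replicate number or the culture note, and omission of each array. A planned count of promoter motifs was not run, since no sequence was used here.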

Additional observations from a re-analysis of the deposited data

How the results depend on the processing

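With the replicate block, 2 genes were called higher and 2 lower in IPEC-J2, in place of 5 and 7, and with the culture-note block 2 were higher and 3 lower. Among all genes, the replicate block gave 4.02% higher and 4.79% lower, and the culture-note block 5.38% and 5.60%, beside 9.46% and 11.2% without a block. The calls thus fell among all genes as well. Arrays of the same number showed no consistent shared deviation (correlations of -0.06, -0.11 and 0.06 over genes, and no IPEC-J2 array correlated best with its own number), so the numbers were not read as pairs. Arrays with a shared culture note had correlations of 0.17 and 0.06, the 2 arrays without one had 0.09, and each IPEC-J2 array correlated best with this partner. For IPEC-J2 replicate 3 the margin was small, at 0.0605 with IPEC-1 replicate 1 (note A) and 0.0552 with IPEC-1 replicate 3. With only the 4 arrays that share a culture note, limma called 0 higher and 2 lower (CTSZ and ATP6V0A4), beside 3.34% higher and 3.81% lower among all genes. These fits have fewer residual degrees of freedom or fewer arrays. With each array left out in turn, 3 to 7 genes were higher and 3 to 6 lower, and ATG4B reversed, with log2 differences from -0.033 (without IPEC-1 replicate 1) to 2.77. Without IPEC-J2 replicate 3, for example, 5.25% of all genes were higher and 6.16% lower. The other settings gave 4 to 6 higher and 5 to 9 lower, and the methods' t-test without adjustment 6 and 10. CTSZ and ATP6V0A4 were kept in all 18 settings, the unadjusted t-test included, GABARAP in 17, CD63 in 16, CTSD in 15, ATP6V0E1 in 13, CTSS in 12, ATP6V1D and ATP6V1F in 10 each, ATP6V1B2 in 8, ATP6V0D1 in 5 and ATP6V0C in 4. For CTSZ and ATP6V0A4, the floor hides the spread of IPEC-J2 in each setting. All 12 called genes had the main direction within both culture notes, which follows from the lack of overlap between the lines and is no separate support. Signals near the floor limit the depth: 13 measured genes, with CTSS and ATP6V0A4 among them, had means below the background levels in both lines.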
